A study of Homo sapiens with 4 samples.

Results

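The genes described here are 7 enzymes that use oxygen to modify proteins or RNA: the ribosomal oxygenases RIOX1 and RIOX2, the ribosomal prolyl hydroxylase OGFOD1, the lysyl hydroxylase JMJD6, the RNA demethylases ALKBH5 and FTO, and the aspartyl/asparaginyl hydroxylase ASPH. They were chosen by symbol, and all 7 were found among the 15562 genes of the RNA-seq table. The RNA-seq data compare H1975 cells after 24 h in normoxia (1 library) with the same cells after 24 h in a hypoxic incubator (1 library) whose gas was 1% O2, 5% CO2 and 94% N2. H1975 is an established human lung adenocarcinoma cell line, labelled wild type in both groups, and all cells were grown in RPMI 1640 with fetal bovine serum and antibiotics. The labels state no oxygen level for the normoxic culture. The series also holds small RNA libraries of both conditions, which were not used here.

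Enzymes of this class bind iron and split molecular oxygen, using 2-oxoglutarate as the second substrate and releasing succinate and carbon dioxide. The best known of them hydroxylate the hypoxia-inducible factors (HIF) and so act as oxygen sensors of the cell. The enzymes described here work elsewhere: on ribosomal proteins, on splicing factors, on methylated adenosines of RNA, and on epidermal growth factor (EGF)-like domains of secreted and membrane proteins. Their activity depends on oxygen directly, and RNA-seq measures the transcript and not the activity.

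The normoxia library held 17643836 counts and the hypoxia library 18943320, and 12725 genes with a scaled CPM (counts per 1000000) of 1 or more in either library were kept. With 1 library per condition there is no spread between cultures, so no p-value is given. Each hypoxia-to-normoxia ratio carries a 95% interval that covers counting error only, and no molecular identifiers are described, so reads may not be independent draws. Genes known to respond to hypoxia differed in the known direction: of the 10 on the list used as a check, 10 had a log2 ratio above 0 and 9 had an interval wholly above 0, with NDRG1 highest at 1.32 and ADM lowest at 0.26 (-0.10 to 0.62). Of 9 markers of epithelium and lung adenocarcinoma 8 were kept, and all 9 together had 162268 counts in normoxia and 156610 in hypoxia. The sums were 103 and 104 counts for endothelial markers, 2017 and 2216 for fibroblast markers (mostly COL1A1) and 430 and 332 for leukocyte markers (nearly all CD14, with PTPRC at 0 and 2). Their part in the results below was not tested.

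Transcripts of the 7 oxygenases differed little between the libraries, with RIOX1 as the exception on the lower side. RIOX1 was 1.38-fold lower in hypoxia, ALKBH5 was 1.11-fold higher, and the intervals of the other 5 genes included no change. By a rule of 2-fold difference with an interval that excludes no change, 0 of 7 were higher and 0 of 7 lower, against 0.472% and 0.44% of all genes kept. By the same rule at a smaller fold, a log2 difference of 0.32, 0 of 7 were higher and 1 of 7 (RIOX1) was lower, against 3.41% and 3.29% of all genes kept. Without regard to size, the interval lay wholly above 0 for 1 of 7 (ALKBH5) and wholly below 0 for 1 of 7 (RIOX1), against 15.0% and 14.0% of all genes kept. The median log2 ratio of the 7 was -0.04 and that of all genes kept was 0.0032. As a group, the 7 thus lay near the background of this pair of libraries.

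**Figure D1:**
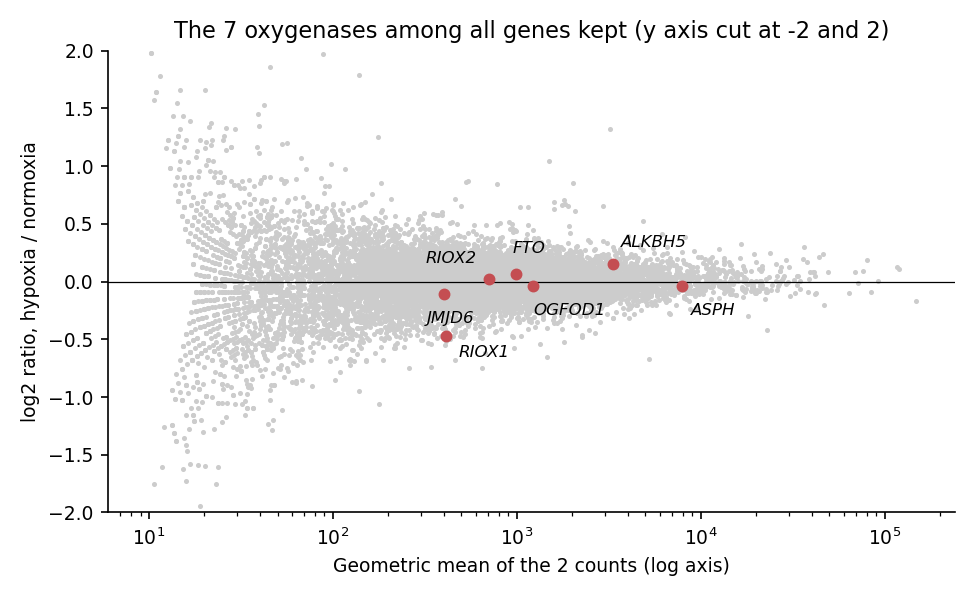
Log2 ratio of hypoxia to normoxia (y axis) against the geometric mean of the counts of both libraries (x axis, log scale) for the genes kept with a count in each library (grey, 12715 inside the axis and 10 beyond it) and the 7 oxygenases (red). RIOX1 lies low among genes of its depth, at -0.47, while the other 6 lie between -0.11 and 0.16.

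The levels of the 7 transcripts spanned more than a factor of 10 when compared per length, as FPKM (fragments per kilobase of gene model, scaled to depth). ALKBH5 was the most abundant, at 54.7 FPKM in normoxia (95% counting interval 52.7 to 56.6), above 89.6% of the genes kept. ASPH followed at 22.6 FPKM, OGFOD1 at 13.3, RIOX1 at 10.8, RIOX2 at 6.14, JMJD6 at 4.15 and FTO at 4.03. Neighbours in this order had intervals that did not overlap, except JMJD6 (3.75 to 4.57) and FTO (3.77 to 4.29), which could not be told apart at this depth. In hypoxia the order was the same apart from that last pair, with FTO at 4.18 FPKM (3.93 to 4.44) and JMJD6 at 3.82 (3.46 to 4.22), again overlapping. The lengths behind these values are the authors' gene models, and they differ widely: 2462 bases for RIOX1, 3159 for ALKBH5 and 19603 for ASPH, a gene with 94 RefSeq transcripts. Where a model adds up exons of many isoforms, FPKM understates the level. By counts alone ASPH came first, with 7800 counts in normoxia and 8088 in hypoxia.

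**Figure D2:**
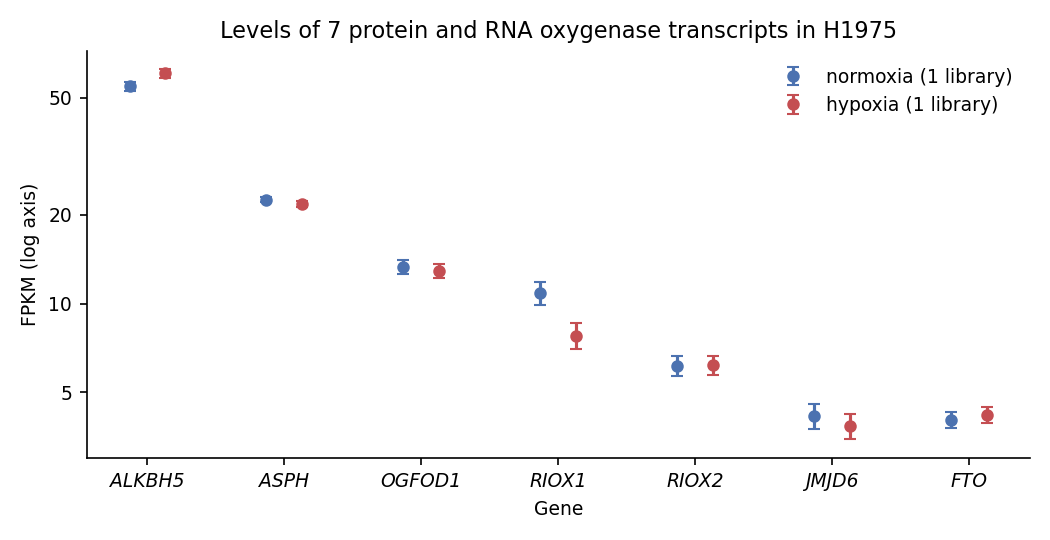
FPKM (y axis, log scale) of the 7 oxygenases in the normoxia library (blue) and the hypoxia library (red), with bars for the exact 95% Poisson counting interval. RIOX1, at 10.8 and 7.76, and ALKBH5, at 54.7 and 60.5, are the genes whose bars do not overlap between the libraries, and ALKBH5 stands above the other 6 in both.

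RIOX1 and RIOX2 are paralogous histidyl hydroxylases of the nucleolus and nucleus. RIOX1 (also NO66) hydroxylates the ribosomal protein RPL8, and RIOX2 (also MINA53) hydroxylates RPL27A. RIOX1 (Entrez 79697, chromosome 14, 73490933 to 73493394 in GRCh38.p14) had 470 counts in normoxia and 362 in hypoxia, or 10.8 FPKM (9.86 to 11.8) and 7.76 FPKM (6.98 to 8.60). The hypoxia value was the lower one, and the intervals did not overlap. Its log2 ratio was -0.47 (-0.67 to -0.27). A ratio as low or lower was found for 3.06% of all genes kept, and for 69 (0.643%) of the 10739 genes that had at least 100 counts in each library, a limit chosen after seeing the data. RIOX2 (Entrez 84864, chromosome 3, 97941818 to 97972431) had 675 and 729 counts, or 6.14 and 6.17 FPKM, and its values in normoxia and hypoxia lay within each other's intervals. Its log2 ratio was 0.02 (-0.13 to 0.17). CRYBG3, whose span overlaps that of RIOX2 by 3167 bases, was at 0.20 (0.06 to 0.33) on 809 and 990 counts. RIOX1 was thus 1.76 times as abundant as its paralog per length in normoxia and 1.26 times in hypoxia. Both factors rest on gene models of 2462 bases for RIOX1 and 6233 for RIOX2, which has 9 RefSeq transcripts. By counts RIOX2 was the higher in each library.

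A comparison of RIOX1 with each of the other members does not depend on how the libraries are scaled. It can depend on the trend of log2 ratio with gene length, and no differences were computed with that trend removed. RIOX1 was then at -0.43 (-0.63 to -0.23). The next lowest were ASPH at -0.13 (-0.18 to -0.09) and JMJD6 at -0.13 (-0.34 to 0.07). The log2 ratio of RIOX1 was lower than that of RIOX2 by a difference of -0.49 (-0.74 to -0.23). Against ALKBH5 the difference was -0.63 (-0.84 to -0.41), and it was smallest against JMJD6, at -0.36 (-0.65 to -0.07). Over all 21 pairs of the 7 genes the interval of the difference excluded 0 for 9, of which 6 held RIOX1 and 4 held ALKBH5. The pair of RIOX1 and ALKBH5 is counted under both. These intervals compare the libraries and were not adjusted for the number of pairs. RIOX1 had the lowest log2 ratio of the 7, so each of its 6 differences had to lie below 0. The 6 also share the RIOX1 counts of 470 and 362, so they are not separate observations.

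**Figure D3:**
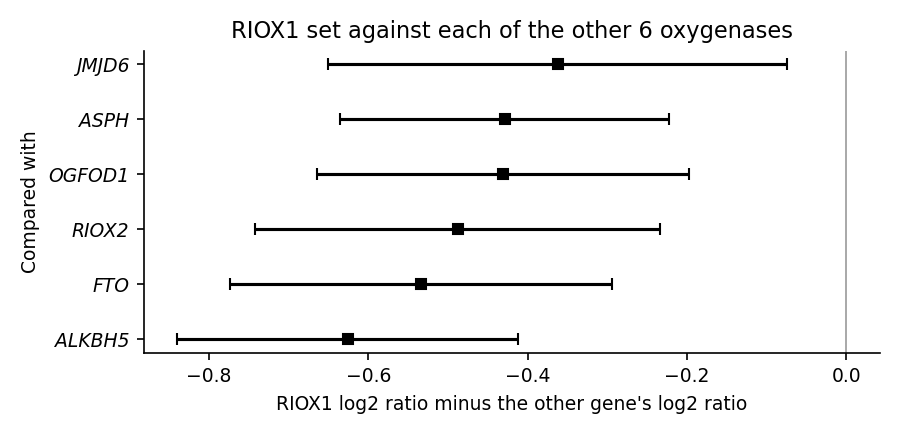
Difference between the log2 ratio of RIOX1 and that of each of the other 6 oxygenases (x axis), with the exact conditional 95% counting interval. The 6 points lie between -0.63 (ALKBH5) and -0.36 (JMJD6), and each interval lies below 0.

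The locus of RIOX1 bears on how its reads could be assigned. Its model length of 2462 bases equals its RefSeq span, so the model holds no intron, and the whole span lies inside the spans of the acyl-CoA thioesterase gene ACOT1 and of HEATR4. ACOT1 starts at the same base as RIOX1 in RefSeq. ACOT1 had 543 counts in normoxia and 509 in hypoxia, a log2 ratio of -0.19 (-0.36 to -0.01), and its own value is uncertain because it has a near-identical paralog. HEATR4 had 15 and 10 counts. The part of this overlap in the RIOX1 value was not tested, and no source used here states whether strand entered the counting.

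OGFOD1 hydroxylates a proline of the ribosomal protein RPS23 near the decoding centre of the ribosome. OGFOD1 (Entrez 55239, chromosome 16, 56451524 to 56479104) had 1204 counts in normoxia and 1250 in hypoxia, or 13.3 and 12.9 FPKM. The libraries did not differ beyond counting error, with a log2 ratio of -0.04 (-0.15 to 0.08). BBS2, whose span overlaps that of OGFOD1 by 8702 bases, also had a log2 ratio of -0.04 (-0.16 to 0.09). The ribosomal substrates of these enzymes are among the most abundant transcripts of the cell. RPS23 had 13059 and 13906 counts and a log2 ratio of -0.0021 (-0.04 to 0.03), and RPL27A was at -0.02 (-0.05 to 0.01). RPL8 was at -0.07 (-0.10 to -0.05), a small difference that deep counting separates from 0. With the trend of log2 ratio with gene length removed, RPL8 was at -0.02 (-0.05 to 0.00049) and RPL27A at -0.04 (-0.07 to -0.0081), so the side of 0 of differences this small depends on that step.

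JMJD6 hydroxylates lysines of splicing factors such as U2AF2 and the LUC7-like proteins. JMJD6 (Entrez 23210, chromosome 17, 76712836 to 76726606) was the least counted member in normoxia, with 403 counts against 399 in hypoxia, or 4.15 and 3.82 FPKM. No difference could be detected at this depth: the log2 ratio was -0.11 (-0.31 to 0.10). METTL23, which overlaps JMJD6 by 566 bases, had 366 and 442 counts and a log2 ratio of 0.18 (-0.02 to 0.38). U2AF2 was at -0.03 (-0.07 to 0.02), and LUC7L2, on 173 and 168 counts, was the lowest of the substrates at -0.14 (-0.45 to 0.18). LUC7L3 was the highest at 0.01 (-0.09 to 0.11). Over the 7 substrates reported, RPL8, RPL27A and RPS23 included, the interval of 0 lay wholly above 0 and that of 1 (RPL8) wholly below. Of all genes kept these were 15.0% and 14.0%, and the median of the 7 was -0.03.

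ALKBH5 and FTO remove methyl groups from adenosines of RNA and so are known as erasers of N6-methyladenosine (m6A). ALKBH5 is also known as a gene that HIF can activate, and it is the only one of the 7 with the term for response to hypoxia in the deposited annotation, which gives this term to 137 genes. HIF binds short motifs with the letters ACGTG or GCGTG. The promoters of ALKBH5 and FTO are shown because the erasers have the same known substrate. The sequences are the 250 bases before the start listed in the RefSeq promoter table (GRCh38.p14), on the plus strand, at chr17:18183578-18183827 for ALKBH5 and chr16:53703906-53704155 for FTO. The windows are not alike in position: the ALKBH5 window ends at the base before the gene's span, while 193 of the 250 bases of the FTO window lie inside the span of FTO, whose listed start is downstream of its first base. Capitals mark ACGTG or GCGTG on either strand (CACGT or CACGC when read here).
ALKBH5: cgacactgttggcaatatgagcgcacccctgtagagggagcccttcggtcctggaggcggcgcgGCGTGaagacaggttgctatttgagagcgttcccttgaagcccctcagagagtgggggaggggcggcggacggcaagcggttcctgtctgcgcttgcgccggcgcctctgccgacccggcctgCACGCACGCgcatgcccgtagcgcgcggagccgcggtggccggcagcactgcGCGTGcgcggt
FTO: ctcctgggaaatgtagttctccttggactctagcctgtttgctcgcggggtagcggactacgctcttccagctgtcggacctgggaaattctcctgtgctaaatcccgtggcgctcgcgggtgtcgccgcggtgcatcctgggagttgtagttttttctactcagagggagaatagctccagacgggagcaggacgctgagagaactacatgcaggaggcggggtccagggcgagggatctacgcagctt
The ALKBH5 window held GCGTG 4 times, counting both strands, with a pair that overlap, and ACGTG 0 times. The FTO window held neither, but it reaches only a short way before the span of FTO and says nothing of the sequence further upstream. Of 35116 RefSeq windows of the same length, 32.2% held GCGTG and 18.5% held ACGTG. The ALKBH5 window is 70% G or C and the FTO window 58.4%. A match is a run of letters and not a measured site. Entries were found for 3 of the 7 members, and the windows of OGFOD1, the third, each held 1 match at its 3 listed starts.

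ALKBH5 (Entrez 54890, chromosome 17, 18183828 to 18209954) had 3047 counts in normoxia and 3621 in hypoxia, or 54.7 FPKM (52.7 to 56.6) and 60.5 FPKM (58.6 to 62.5). The hypoxia value was the higher one, and the intervals did not overlap. The log2 ratio was 0.16 (0.09 to 0.23). A ratio as high or higher was found for 17.5% of all genes kept and for 1515 (14.1%) of those with at least 100 counts in each library, so a value of this size is common here. It is below the ratios of the hypoxia response genes VEGFA at 0.65 (0.58 to 0.73), CA9 at 0.51 (0.38 to 0.65) and KDM3A, another oxygenase, at 0.35 (0.23 to 0.47). FTO (Entrez 79068, chromosome 16, 53703963 to 54121941) had 940 and 1048 counts, or 4.03 and 4.18 FPKM, and a log2 ratio of 0.06 (-0.06 to 0.19). The values of FTO did not differ beyond counting error, and its neighbour RPGRIP1L, which lies 103 bases away, was at 0.0072 (-0.25 to 0.27). The gene nearest to ALKBH5, MYO15A, had only 36 and 43 counts. The difference between the erasers was 0.09 (-0.05 to 0.24), so ALKBH5 was not shown to differ from FTO in its ratio. With the length trend removed, ALKBH5 was at 0.17 (0.10 to 0.24) and FTO at -0.0056 (-0.13 to 0.12). An interval for their difference was not computed with that step, so this outcome may depend on it. Per length, ALKBH5 was 13.6 times as abundant as FTO in normoxia and 14.5 times in hypoxia. These factors rest on gene models of 3159 bases for ALKBH5 and 13231 for FTO, which has 25 RefSeq transcripts. By counts in normoxia the genes had 3047 and 940.

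The writers and readers of m6A were measured in the same libraries. Among 12 writers, which include METTL3 and METTL14, 8 had a log2 ratio above 0, against 50.7% of all genes kept. The interval of 3 lay wholly above 0 and that of 0 wholly below, against 15.0% and 14.0% of all genes kept. Their median was 0.05. With total counts, and with the length trend removed, the interval of 2 writers lay wholly above 0. The scaffold protein ZC3H13 was highest at 0.29 (0.09 to 0.48), on 391 and 509 counts, the others were METTL5 and VIRMA, and the ribosomal RNA methylase ZCCHC4 was lowest at -0.12 (-0.42 to 0.18). Of 9 readers kept, 9 had a log2 ratio above 0, where 50.7% of all genes kept did, and the interval of 4 (YTHDF3, IGF2BP3, HNRNPA2B1 and HNRNPC) lay wholly above 0, against 15.0% of all genes kept. The median was 0.09. IGF2BP3 was at 0.12 on 2853 and 3295 counts, HNRNPA2B1 at 0.09 on 19838 and 22524, and HNRNPC at 0.09 on 7907 and 8979. Deep counting separates such small ratios from 0, and the share of all genes was not matched for depth. The fourth, YTHDF3, had 713 and 868 counts. YTHDF3, which binds m6A in the cytoplasm, was highest at 0.19 (0.05 to 0.34), and the helicase YTHDC2 lowest at 0.02 (-0.12 to 0.16). With the length trend removed, 8 of 9 readers were above 0 and YTHDC2 was at -0.02. The differences were small. By the rule at 0.32 log2, 0 of the 12 writers and 0 of the 9 readers were called. That rule called 3.41% of all genes kept higher and 3.29% lower.

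ASPH hydroxylates aspartate and asparagine in EGF-like domains within the endoplasmic reticulum. The same gene encodes junctin and junctate, calcium-handling proteins without the catalytic domain, and counts per gene do not separate these isoforms. ASPH (Entrez 444, chromosome 8, 61500556 to 61714592) had 7800 counts in normoxia and 8088 in hypoxia, or 22.6 FPKM (22.1 to 23.1) and 21.8 FPKM (21.3 to 22.3). The FPKM intervals overlapped, and the log2 ratio was -0.04 (-0.09 to 0.0046), a narrow interval that ends just above 0. Of 6 alternatives with an interval, 2 gave ASPH one that excludes 0: scaling to total counts, at -0.05 (-0.10 to -0.0052), and removal of the length trend, at -0.13 (-0.18 to -0.09). ASPH has the longest gene model of the 7. The overlapping CLVS1 had 9 and 17 counts.

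Genes of proteins with EGF-like domains of the kind that ASPH modifies lay on both sides of 0. Of the 9 genes kept and reported, the interval of 3 lay wholly above 0 and that of 4 wholly below, against 15.0% and 14.0% of all genes kept. The median was -0.27, but it was -0.15 with a filter at a CPM of 5 and -0.06 from FPKM with a pseudocount of 1. The rule at 0.32 log2 called 0 higher and 3 lower, against 3.41% and 3.29% of all genes kept. The 3 were thrombomodulin THBD at -0.61 (-1.09 to -0.14) on 93 and 65 counts, the receptor NOTCH3 at -0.51 (-0.86 to -0.16) on 163 and 122, and the Notch ligand JAG2 at -0.44 (-0.59 to -0.29) on 860 and 676. LTBP1, at -0.27 (-0.52 to -0.03), was the other with an interval below 0. The receptor NOTCH2 was highest at 0.22 (0.14 to 0.30), followed by protein S (PROS1) at 0.16 (0.06 to 0.26) and the Notch ligand JAG1 at 0.08 (0.01 to 0.14), whose interval included 0 with the length trend removed (-0.02 to 0.11). Of 5 genes for partners of junctate in calcium release and entry, the interval of 3 lay wholly above 0 and that of 0 wholly below. Of all genes kept, not matched for depth, these were 15.0% and 14.0%. The 3 were the inositol trisphosphate receptors ITPR1 at 0.44 (0.31 to 0.57), called higher by the same rule, ITPR2 at 0.27 (0.08 to 0.46) and ITPR3 at 0.13 (0.08 to 0.18). The store-operated channel gene ORAI1 was lowest at -0.05 (-0.22 to 0.12).

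**Figure D4:**
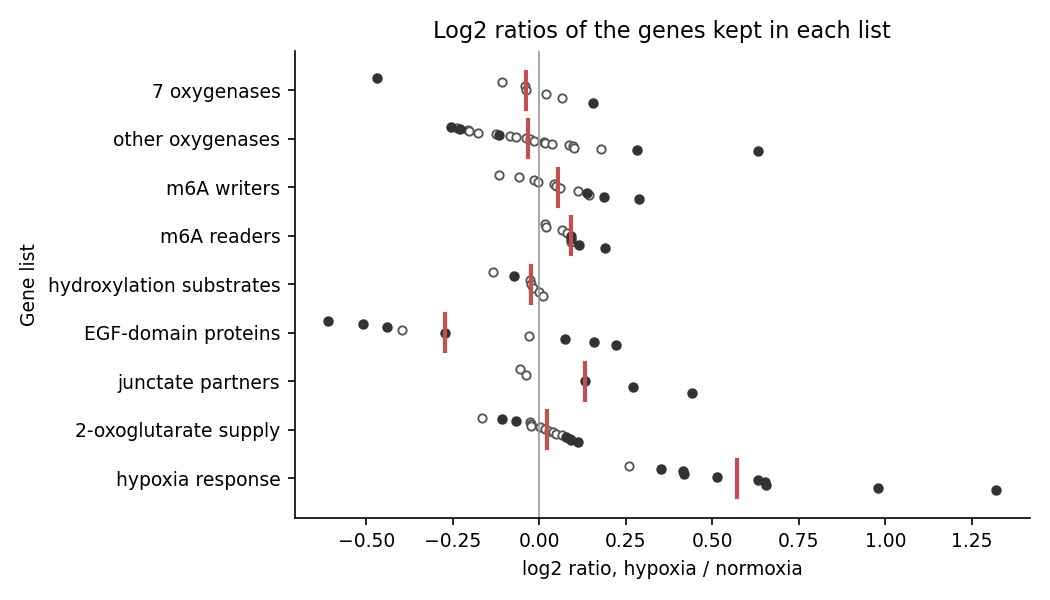
Log2 ratio of hypoxia to normoxia (x axis) of each gene kept in the lists named on the y axis. Filled points have a 95% counting interval that excludes 0, open points do not, and red bars mark the medians, which run from -0.27 (EGF-domain proteins; -0.15 with a filter at a CPM of 5 and -0.06 from FPKM with a pseudocount of 1) to 0.57 (hypoxia response), with the 7 oxygenases at -0.04.

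A list of other oxygenases of proteins, RNA and DNA lay on both sides of 0. It leaves out the collagen hydroxylases and many histone and DNA demethylases, but holds ALKBH1, ALKBH2, ALKBH3 and KDM8. Of 22 kept, 9 had a log2 ratio above 0, against 50.7% of all genes kept. The interval of 2 lay wholly above 0 and that of 3 wholly below, against 15.0% and 14.0% of all genes kept. The median of the 22 was -0.03. The rule at 0.32 log2, which called 3.41% of all genes kept higher and 3.29% lower, called 1 of these 22. It was the HIF prolyl hydroxylase EGLN3 at 0.63 (0.53 to 0.73). The lowest was JMJD4, which hydroxylates a translation termination factor, at -0.26 (-0.39 to -0.12) on 965 and 862 counts. The interval of JMJD4 overlapped that of RIOX1. The HIF hydroxylase EGLN1 was also above 0, at 0.28 (0.19 to 0.38), and OGFOD3 and ALKBH7 below it, at -0.23 (-0.38 to -0.08) and -0.12 (-0.23 to -0.0039). With the length trend removed, the interval of ALKBH7 included 0 (-0.17 to 0.06), and 2 intervals of this list lay wholly above 0 and 2 wholly below. A further 16 reported genes supply or use 2-oxoglutarate or handle the metabolites that compete with it. The interval of 4 lay wholly above 0 and that of 2 wholly below, against 15.0% and 14.0% of all genes kept. Their median was 0.02. IDH1, SDHC and SDHD were above 0 with GLUD1, and IDH3B and GOT2 below it. With the length trend removed the counts were 5 above and 0 below. The glutamate dehydrogenase GLUD1 was highest at 0.11 (0.07 to 0.16) and D2HGDH, which clears D-2-hydroxyglutarate, lowest at -0.17 (-0.35 to 0.01).

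**Figure D5:**
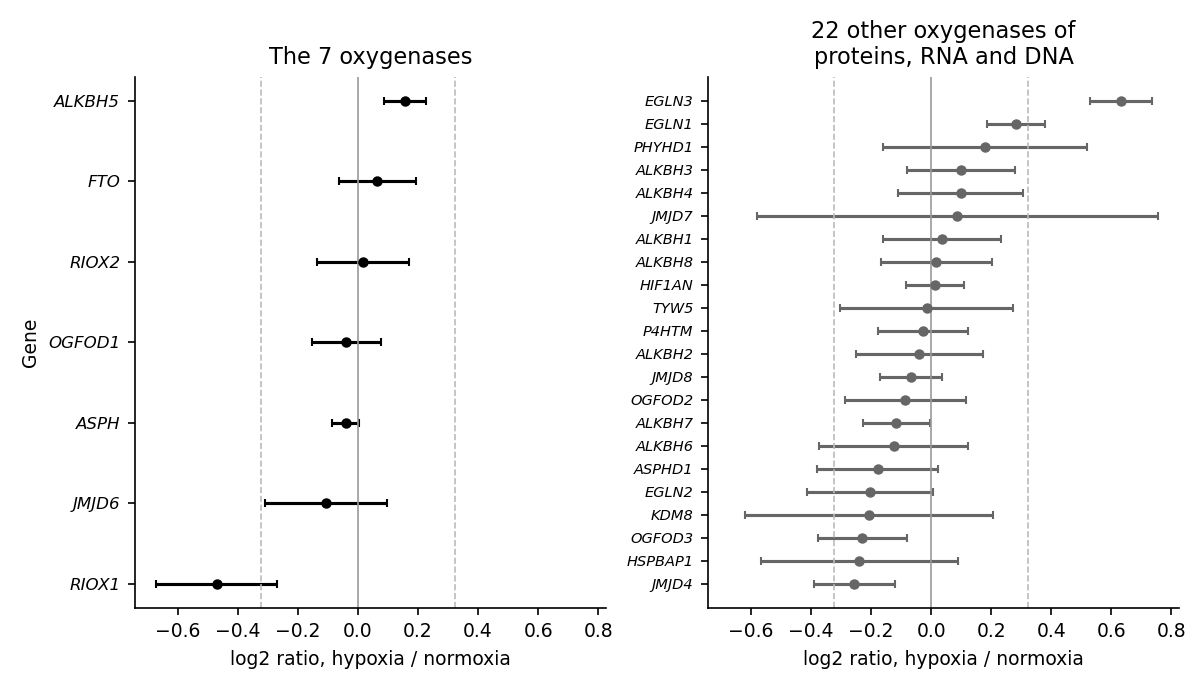
Log2 ratio of hypoxia to normoxia (x axis) with its exact 95% counting interval for the 7 oxygenases (left) and 22 other oxygenases (right), one gene per line; dashed lines mark a log2 difference of 0.32 either way. RIOX1 lies beyond the line on the lower side at -0.47, and EGLN3 beyond it on the higher side at 0.63.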

How the data were processed

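Cells were lysed for RNA with TRIzol, and a stranded mRNA kit was used for the libraries, per the labels' protocols. Trimmomatic, HISAT2, Cufflinks, HTSeq, Bowtie and GRCh38 are named, with neither role nor version, per the submitters' processing notes. The authors deposited read counts per gene, as whole numbers, and FPKM. The deposited FPKM equalled the counts divided by the table total and a gene length that was whole within 0.01 bases for 100% of genes. That length was used as the gene model length.

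Scaling was by TMM (edgeR 4.0.16, R 4.3.3). Ratios carry exact conditional (Clopper-Pearson) 95% intervals, and FPKM exact Poisson intervals, from scipy 1.17.1 in Python 3.11.15. Differences between members are conditional odds ratios. Intervals cover counting error only. The filter was a CPM of 1 in either library. Coordinates and sequences are from RefSeq (GRCh38.p14), and 15526 genes matched by Entrez identifier. Of each list, the highest and lowest gene with 50 or more counts in both libraries and each gene called at the smaller fold (0.32 log2) are named; further genes with an interval that excludes 0 were named after their values were seen. Some listed genes are not reported here and enter no list count or median. The members and lists were chosen with earlier results of these data known. The script was tested on simulated data. Alternatives were total counts, size factors of DESeq2 1.42.0, the upper quartile, FPKM with a pseudocount of 1 or 0.1, other filters, a stricter call and removal of the gene-length trend (running median over 501 genes).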

Additional observations from a re-analysis of the deposited data

How the results depend on the processing

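The log2 ratio of RIOX1 lay between -0.48 and -0.43 and that of ALKBH5 between 0.14 and 0.17 over 8 alternatives of scaling, filter, FPKM and length. Their intervals excluded 0 in each of the 6 alternatives that give one. Of these 6, the absence of a filter and a filter at a CPM of 5 keep the main scaling. They could not change a member's ratio or interval. With the length trend removed, ASPH moved to -0.13, and FTO, whose interval includes 0, to -0.0056. RIOX1 was the only member called at 0.32 log2, and 0 members were called when the interval had to lie wholly beyond that fold. Genes higher and lower at 2-fold numbered 60 and 56. They numbered 6 and 1 from FPKM with a pseudocount of 1, 30 and 20 from FPKM with 0.1, 107 and 104 unfiltered, 6 and 2 where the interval lay beyond the fold, 7 and 1 above a CPM of 5, and 3 and 1 with at least 100 counts in each library. At 0.32 log2, 434 genes were higher and 419 lower; these were 183 and 229 from FPKM with a pseudocount of 1, 84 and 61 with the interval beyond the fold, and 273 and 263 with 100 or more counts. The filter on 100 counts, and length removal for the lists, were chosen after seeing the data. A pseudocount or a filter acts on genes with few counts. The list medians stayed within the medians of their genes' interval bounds under each scaling, FPKM and filter alternative, a wide margin that for the EGF-domain list held values from -0.28 to -0.06. By counts in place of FPKM, 5 of the 7 members changed place in the order of levels in each library. No paired analysis was possible because each condition has 1 library.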
